A study of Mus musculus with 30 samples.

Results

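The cytosolic ribosomal protein genes were followed across 6 groups of mouse fat-cell libraries. The members were the protein-coding genes whose symbol names a protein of the large (Rpl, Rplp) or small (Rps, Rpsa) subunit of the cytosolic ribosome. Of 89 matching symbols, 6 were annotated as pseudogenes and 1 was left out by name, which left 82 members among the 35120 genes of the count table. The large subunit supplied 50 of them and the small subunit 32.

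The study concerned loss of β-catenin (Ctnnb1), the Wnt signal carrier, in mouse white fat. Libraries labelled Ctnnb1AdKO (called knockout here) came from male adipocytes (n = 5), female adipocytes (n = 6) and male stromal-vascular cells (SVC, the pelleted mixture of progenitor, immune and endothelial cells; n = 4). Controls were Ctnnb1fl/fl mice of the same sex and age, with 6 male adipocyte, 6 female adipocyte and 3 male SVC libraries. The labels name epididymal and posterior subcutaneous fat for every library, those of females included, and state neither the driver of the deletion, the ages nor whether a library pools animals or depots. Adipocyte markers summed to between 62654 and 110240 CPM (normalised counts, defined below) in adipocyte libraries and to at most 2528 CPM in SVC. Ctnnb1 mRNA averaged 357 ± 10.4 CPM (SD, n = 6) in male control adipocytes and 349 ± 30.6 CPM (n = 5) in those labelled knockout. In females it averaged 341 ± 22.1 and 367 ± 29.9 CPM (n = 6 each), and in SVC 385 ± 15.4 (n = 3) and 420 ± 143 CPM (n = 4). In male adipocytes the knockout mean was lower by less than the spread between libraries, and in the other pairs of groups it was not lower, so this transcript gave no check of the genotype labels. The labels number the replicates but do not say that each is a separate mouse, so p-values measure the spread between these libraries. Total counts lay between 20484836 and 22209603 per library, and CPM here are counts brought to a common library size with the trimmed mean of M values (TMM) over all 30 libraries.

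Each cytosolic ribosome carries a single copy of most of these proteins, around ribosomal RNA that decodes messenger RNA (small subunit) and forms the peptide bond (large subunit). Their mRNAs begin with a run of pyrimidines, the 5′ terminal oligopyrimidine tract, through which growth signals acting on mTOR control their translation. A few members have paralogues that are largely confined to testis (Rpl10l, Rpl39l) or striated muscle (Rpl3l). Adipocytes and stromal cells need ribosomes for their own growth and for secreting proteins such as adiponectin or collagen.

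Start-site windows were available for 63 of the 82 members in RefSeq's promoter table (GRCm38.p6), each of 300 bases. Runs counted were those of at least 8 bases of C or T that reached within 10 bases of the annotated start. One was present in 27 of the 63 windows (42.9%) and in 13.5% of the 27025 windows of that length over all genes. Where a gene had several windows, only the first listed was used, so a run at another of its starts would be missed. The hexamer CGGAAG, searched on both strands of the whole window, was present in 42 of 63 (66.7%) and in 17.2% of all windows. These matches describe letters only. The 9 windows below run from 30 bases before the annotated start to 20 bases from it, 5′ to 3′, with such a run, where there is one that close to the start, in capitals. They belong to members whose values stand out below: Rplp2 and Rpl41 (lower in SVC than in adipocytes), Rpl4, Rpl12 and Rpl5 (higher in SVC), Rps12 and Rpl22l1 (higher in female adipocytes), and the paralogues Rpl10l and Rpl39l.
Rplp2, chr7:141447621-141447670, plus strand: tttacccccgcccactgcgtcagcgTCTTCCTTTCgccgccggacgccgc
Rpl41, chr10:128549149-128549198, minus strand: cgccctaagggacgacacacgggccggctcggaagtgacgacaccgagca
Rpl4, chr9:64173357-64173406, plus strand: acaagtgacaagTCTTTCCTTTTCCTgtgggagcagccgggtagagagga
Rpl12, chr2:32961682-32961731, plus strand: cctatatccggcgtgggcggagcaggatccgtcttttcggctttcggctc
Rpl5, chr5:107900498-107900547, plus strand: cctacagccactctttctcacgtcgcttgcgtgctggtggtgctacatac
Rps12, chr10:23787190-23787239, minus strand: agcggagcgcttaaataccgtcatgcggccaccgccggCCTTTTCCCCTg
Rpl22l1, chr3:28805478-28805527, plus strand: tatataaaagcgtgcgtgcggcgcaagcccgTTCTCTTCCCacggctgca
Rpl10l, chr12:66284382-66284431, minus strand: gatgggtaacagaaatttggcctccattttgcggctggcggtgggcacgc
Rpl39l, chr16:10170198-10170247, plus strand: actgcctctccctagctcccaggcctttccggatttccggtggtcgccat

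Together the members took 1.72% ± 0.213 (SD, n = 6) of all counts in male control adipocytes and 1.709% ± 0.2496 (n = 5) in male knockout adipocytes. Female adipocytes gave 2.22% ± 0.443 (n = 6) in controls and 1.87% ± 0.313 (n = 6) in knockouts. In SVC the share was 2.85% ± 0.844 (n = 3) in controls and 2.702% ± 0.147 (n = 4) in knockouts. The spread in SVC controls came from replicate 3, at 3.83%, beside 2.41% and 2.33% in replicates 1 and 2. That library also had the highest summed macrophage markers of its group (8012 CPM, against 3393 and 3758 CPM). In SVC knockout replicates 1 to 4 these markers summed to 4292, 7798, 6524 and 4938.5 CPM, beside shares of 2.59%, 2.83%, 2.83% and 2.56%. The part of these markers in the share was not tested. Every SVC library lay above every male adipocyte library, where the highest share was 2.09%. A share is of the library's own counts, whereas the CPM used below are divided by TMM factors of 1.16 to 1.48 in SVC and 0.855 to 0.986 in adipocytes, so the fraction differences in CPM are smaller than those in share.

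**Figure D1:**
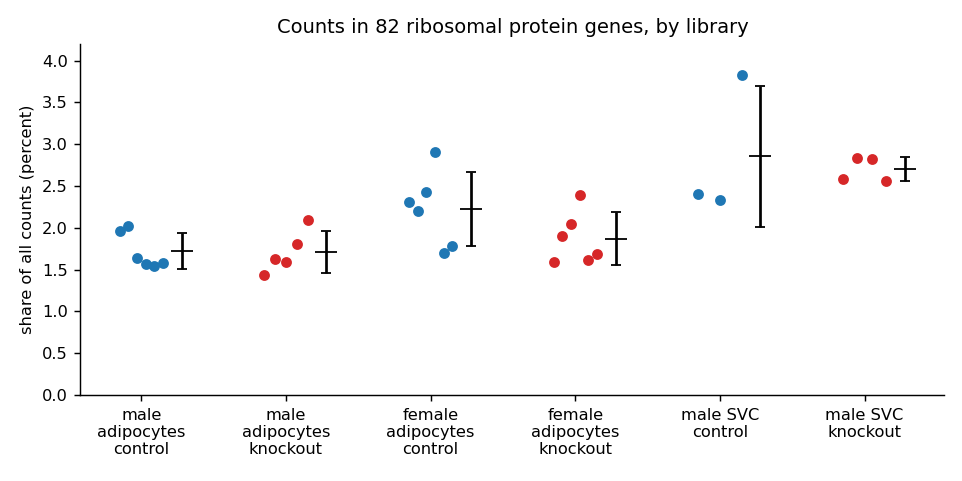
Share of all counts (percent, axis from 0) in the 82 ribosomal protein genes, 1 point per library, with the mean and SD of each group beside the points (blue, control; red, knockout). Male adipocytes sit between 1.44% and 2.09%, and SVC control replicate 3 stands at 3.83%.

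Among the members, Rplp0 (the stalk protein to which the P1 and P2 dimers bind; mean 962 CPM over 30 libraries), Rps2 (920 CPM) and Rpsa (the laminin receptor precursor, 776 CPM) had the highest levels. The 5 members with most counts (Rplp0, Rps2, Rpsa, Rpl4 and Rpl10) held 18.4% of the members' counts. Per kilobase of coding sequence the order changed: Rpl41, the shortest protein of the ribosome, came first at 3517 CPM per kilobase, followed by the stalk protein Rplp1 (1364 CPM per kilobase), Rps2 (1047) and Rplp0 (1012). Rpl24, Rpl3l and Rps10 were lowest in CPM, with means of 0.301, 0.394 and 0.576. The levels of Rpl24, Rps10 and Rpl13a (1.76 CPM) are uncertain. In GENCODE M21 another gene annotated on the same strand (Gm28037, RPS10-NUDT3 and Gm45713) covers 47.0%, 20.6% and 29.4% of their exonic bases. Counts assigned to 174 annotated ribosomal protein pseudogenes came to 0.33% of the members' counts, and no source used here says how the authors' counting divided reads between a member and its pseudogenes.

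The members moved together from library to library. After centring each group on its mean, the median correlation between pairs of the 76 members with at least 100 counts on average was 0.82 over the 23 adipocyte libraries, beside 0.0043 between pairs of all 9772 genes at that level. Library-wide scaling is shared by the points behind each such correlation. Mean deviations from the group ranged from -0.32 (female control replicate 5) to 0.37 (female control replicate 4) on the log2 scale. Rpl12, which sits at the stalk base, followed the other members most closely (r = 0.98), and those that followed them least were Rpl7l1 (r = 0.31), the peptidyl-transferase-centre protein Rpl3 (r = 0.52) and Rpl38 (r = 0.57). Without male knockout replicate 5 the value of Rpl7l1 was 0.0057 and that of Rpl3 0.39. Over the 7 SVC libraries the median correlation was 0.95 (78 members), and without control replicate 3 it was 0.67. Rpl10l (r = -0.43) and Rpl39l (r = -0.41) did not follow the others there, and Rpl4 had the lowest positive value (r = 0.73).

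The first comparison asked whether ribosomal protein mRNAs differed with the genotype label. In male adipocytes no member passed the test: 0 of 78 tested were called, where 0.0703% of all 14227 genes tested were called in either direction (edgeR quasi-likelihood test, Benjamini-Hochberg adjusted p below 0.05 over all genes). Rpl19, a large subunit protein near the exit tunnel, had the smallest p. Its level was 91.6, 96.4, 99.5, 102, 116 and 121 CPM in the controls and 57.6, 67.8, 69.6, 76.4 and 85.3 CPM in the knockouts. No knockout library reached the lowest control, which held for 1 of 78 members and for 0.935% of all genes. The log2 fold change of Rpl19 was -0.55 ± 0.12 (SE), with an adjusted p of 0.0759 (edgeR). Without male knockout replicate 5, 2 members passed as lower in knockouts, Rpl19 and Rpl10a (-0.33 ± 0.12 with all libraries, adjusted p = 0.252). Among the 78 members 27 had a positive and 51 a negative fold change, with a median of -0.05, beside 0.02 over all genes.

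In female adipocytes, too, no member passed (0 of 78, beside 0.471% of all genes), though 77 of 78 had a negative log2 fold change. Their median was -0.18, and that of all genes was 0.0064. Rps4x, the X-linked small subunit protein, had the smallest p (-0.32 ± 0.12, adjusted p = 0.328, edgeR). Its levels ran from 404 CPM over a median of 458 to 637 CPM in controls and from 308 over 383 to 469 CPM in knockouts, so the groups overlapped. Rps27 followed, at -0.38 ± 0.16 (adjusted p = 0.390). The single positive value was that of Rpl22l1 (0.04 ± 0.22), the paralogue of Rpl22. Since the members share library-wide deviations, 77 negative values are not 77 separate observations, and the median lay between -0.24 and -0.09 over 22 alternative settings. Other measures moved in the same libraries. Transcripts of mitochondrial DNA took 3.49% to 5.19% of counts in female controls and 5.92% to 8.12% in female knockouts, without overlap. As a share of nuclear counts the members were at 2.32% ± 0.463 and 2.01% ± 0.345 (SD, n = 6 each), with overlap. All 10 macrophage markers had negative fold changes (median -0.91), of which none passed. The part of either in the members' values was not tested.

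SVC gave 0 of 81 members called, and 0% of the 16404 genes tested passed there in either direction (edgeR). At an unadjusted p below 0.05 stood 429 genes, of which 0 were members, and DESeq2 and limma-voom called no member either. The median of the members was -0.06, and without control replicate 3 it was 0.35. Rpl22 (-0.20 ± 0.19) and Rpl14 (-0.22 ± 0.30) had the smallest p among members with negative values, both with an adjusted p of 0.968. Tests of the difference between genotype effects called no member: 0 of 78 for females against males (0.0141% of all genes) and 0 of 81 for SVC against adipocytes (0% of all genes). Rpl19 had the smallest p in both, with differences of 0.41 ± 0.17 (adjusted p = 0.518) and 0.55 ± 0.26 (adjusted p = 0.748). Among negative differences the smallest p belonged to Rpl5 (-0.39 ± 0.17) between the sexes and Rpl22l1 (-0.44 ± 0.33) between the fractions. At an unadjusted p below 0.05 (edgeR) there were 5 of 78 members in male adipocytes, beside 1861 of all 14227 genes tested. Female adipocytes had 8 of 78, beside 1469, and the difference between the sexes 2 of 78, beside 1262. That between the fractions had 1 of 81, beside 1149 of 17251 genes. In no case was the share of members above that of all genes.

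Sex gave the clearest contrast within adipocytes. In controls, 48 of 78 members (61.5%) were higher in females and none was lower at an adjusted p below 0.05 (edgeR). Among all 14227 genes tested 23.7% were called higher in females and 2854 genes lower. Positive fold changes numbered 75 of 78, with a median log2 fold change of 0.40, where 54.0% of all genes were positive with a median of 0.05. Since the members share library-wide deviations, neither these signs nor the 48 calls are separate observations. The mean log2 CPM of the members was 7.03 ± 0.169 in male and 7.39 ± 0.266 in female controls (SD, n = 6 each), with overlap. In 7 of 78 members every female control lay above every male control (against 10.1% of all genes), among them Rpl12, Rpl7a, Rpl7l1 and Rpsa. Most of the called members thus differed in mean with groups that overlapped. The count was 32 without female control replicate 4. Markers of other cells differed between the sexes as well: of 10 macrophage markers 7 were lower in female controls, where their sum ran from 236 to 495 CPM against 535 to 1011 CPM in males. Of 10 progenitor and fibroblast markers 5 were higher (1058 to 1582 against 753 to 1065 CPM). Mitochondrial transcripts took 1.83% ± 0.149 of counts in male and 4.37% ± 0.601 in female controls (n = 6 each). The part of these in the members' difference was not tested.

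By subunit, the large subunit supplied 26 of its 46 tested members and the small subunit 22 of 32. The largest difference was that of Rpl22l1, which ran from 19.7 CPM over a median of 23.4 to 33.8 CPM in male controls and from 29.3 over 53.3 to 65.8 CPM in female controls. The 2 lowest female libraries fell within the male range, and the log2 fold change was 0.95 ± 0.22 (SE, adjusted p = 0.00141). Its partner Rpl22 differed less (0.28 ± 0.11, adjusted p = 0.0431). Rps12, a small subunit protein of the head region, ran from 160 over 173 to 235 CPM in males and from 215 over 310 to 432 CPM in females, with 1 female library inside the male range (0.76 ± 0.15, adjusted p = 3.44e-04). Rps27a, made as a fusion with ubiquitin, was higher by 0.68 ± 0.15 (adjusted p = 6.81e-04), and Rps23, a protein of the decoding site, by 0.67 ± 0.15 (adjusted p = 8.83e-04). Rps27l and Rps27 were both higher (0.51 ± 0.17 and 0.45 ± 0.16), and so was Rpl7l1 (0.30 ± 0.09), while its relative Rpl7 did not pass (0.13 ± 0.12, adjusted p = 0.380).

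Few members went the other way. Rpl19 had a log2 fold change of -0.28 ± 0.12 with an adjusted p of 0.0515, on the edge of the threshold, and Rpl3 one of -0.15 ± 0.11 (adjusted p = 0.255). Rpl3 was steady in female controls, from 390 to 458 CPM, and ran from 388 to 533 CPM in male controls. With relative log expression scaling, with TMM computed without the members, with DESeq2, with limma-voom or with only the controls fitted, 1 member was called lower in females, Rpl19.

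In knockout adipocytes, which share no library with the controls, 13 of 78 members (16.7%) were higher in females and none was lower. Among all 14227 genes 18.2% were called higher and 2341 genes lower, so the share of members called higher was near the background. The median log2 fold change of the members was 0.23 and 76 of 78 values were positive, which again are not separate observations. Rpl23 was the single member without overlap between the sexes (7.99% of all genes had every female above every male): it ran from 147 over 173 to 193 CPM in male and from 200 over 232 to 284 CPM in female knockouts (0.48 ± 0.13, adjusted p = 0.00512). Rps21 (0.62 ± 0.19, adjusted p = 0.0161), the X-linked Rpl36a (0.48 ± 0.16, adjusted p = 0.0201) and Rpl13a (0.58 ± 0.21, adjusted p = 0.0371, on few counts) were the other leading members. Of the 48 members called in controls 12 (25%) were also called in knockouts, which is 92.3% of the 13, and Rps21 was called in knockouts only. The sign was the same in both genotypes for 75 of 78 members. Of the 38 members at or below the median coding length 9 were called in knockouts and 22 in controls, and of the 38 longer ones 3 and 25. The test of whether the sex difference depends on genotype is the one reported above, in which no member was called. The count in knockouts ran from 1 (without male knockout replicate 3 or without female knockout replicate 4) to 24 (without male knockout replicate 5).

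**Figure D2:**
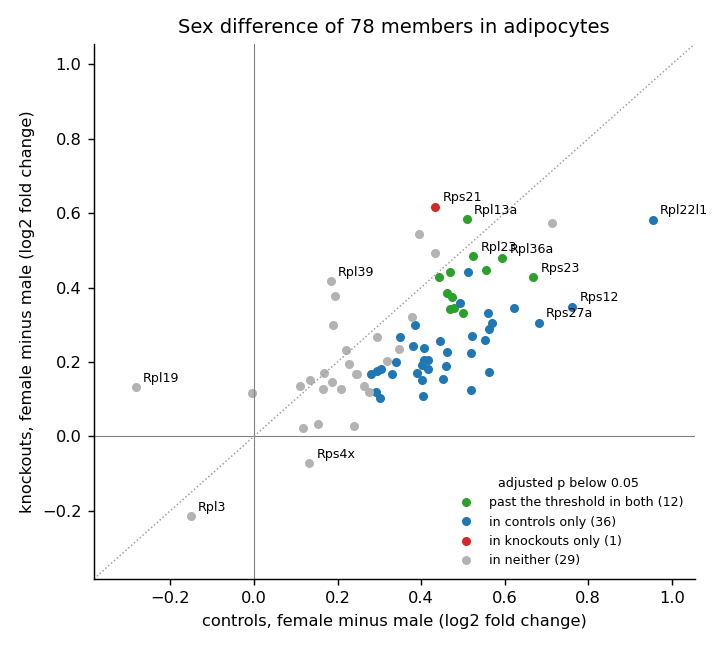
Log2 fold change of 78 members, female minus male, in control adipocytes (horizontal) and in knockout adipocytes (vertical), coloured by which comparison passed an adjusted p of 0.05, with the line of equal values dotted. Points lie mostly right of and above 0 and below the dotted line, and Rpl3 and Rpl19 lie left of 0.

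Other genes of the translation machinery are set here beside the 23.7% of all genes called higher in female controls and the 18.2% in female knockouts. Called lower were 2854 and 2341 of all 14227 genes. Of 22 translation factors and other mRNAs of the oligopyrimidine type, 9 were higher and 3 lower in female controls, and 7 and 1 in female knockouts. Eif2s3x, the X-linked γ subunit of eIF2, was higher by 0.86 ± 0.10 in controls and 0.89 ± 0.11 in knockouts, and Eef2, the translocation factor, was lower by -0.48 ± 0.10 and -0.29 ± 0.11. Of 10 host genes of small nucleolar RNAs, 7 and 3 were higher and none lower, led by Snhg6 (1.29 ± 0.26 in controls). Of 50 ribosome biogenesis genes 13 were higher and 5 lower in controls, and 7 and 5 in knockouts, with medians of 0.13 and 0.0056. In controls Rpf2 (0.68 ± 0.13), a 60S assembly factor, was among the higher genes and Polr1a (-0.59 ± 0.14), the large subunit of RNA polymerase I, among the lower ones. Of 77 mitochondrial ribosomal proteins 34 were higher and 1 lower in controls, and 38 and none in knockouts.

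The comparison of fractions in males showed members moving apart from each other. In controls 23 of 81 members were higher in SVC than in adipocytes and 8 lower, beside 44.2% of all 17251 genes higher and 32.8% lower. In knockouts 20 were higher and 7 lower, beside 44.7% and 31.8%. Rpl39l counts among the higher ones in both genotypes, and so among those shared, and Rpl10l among those of the knockouts. Both passed the filter only through SVC libraries, with most counts in 2 that carried sperm transcripts (described below). Their calls are therefore not read as a fraction difference. Rpl10l also counts among the members with every SVC library above. The libraries of the 2 genotypes are separate. Of those called higher in controls 17 of 23 (73.9%) were also called in knockouts (85% of its 20), and of those called lower 6 of 8 (75%, and 85.7% of the 7). The median log2 fold change of the members was 0.24 in controls and 0.19 in knockouts, and that of all genes 0.29 in both. In controls the SVC libraries were all above the adipocyte libraries for 13 members (41.3% of all genes) and all below for 3 (32% of all genes); in knockouts the numbers were 15 (32.8%) and 7 (26.9%).

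How many members counted as higher rested on SVC control replicate 3. Without that library 5 members were called higher in controls, Rpl12, Rpl4, Rpl5, Rpl39l and Rps10, and 30 lower, with a median of -0.18. Among the 5, Rpl39l has at most 4 counts in any adipocyte library and Rps10 an uncertain level. All 8 members called lower with every library were among the 30. Without both SVC libraries that carried epididymal or sperm transcripts (control replicate 1 and knockout replicate 4, described below) there were 36 higher and 4 lower in controls, and 25 and 7 in knockouts. The shares of all genes called in these refits are not given here. A change in the members can therefore not be told from a change over all genes. In the knockouts, where libraries of the 2 fractions pair by the number in their names, the fit with the pairs as a replicate block called 4 higher and 6 lower. Those 4 were Rpl10l, Rpl39l, Rpl13a and Rps10, the first pair being testis paralogues and the other pair having uncertain levels. Rpl12, Rpl4 and Rpl5 kept log2 fold changes of 0.69, 0.60 and 0.57 in that fit, with adjusted p of 0.0544, 0.0578 and 0.122 (edgeR). In controls, whose libraries are numbered the same way, the blocked fit called 6 higher and 7 lower. The higher ones were Rpl12, Rpl4, Rpl5, Rpl3, Rpl10l and Rpl39l.

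The acidic stalk protein Rplp2, which recruits elongation factors, was the member that was lower in SVC by most. Its level ran from 318 over a median of 382 to 507 CPM in male control adipocytes and was 122, 124 and 246 CPM in control SVC. In knockouts it was 270, 315, 327, 397 and 416 CPM in adipocytes and 142, 172, 173 and 179 CPM in SVC. No SVC library reached the adipocyte range in either genotype. On the log2 scale SVC minus adipocytes came to -1.28 ± 0.23 (SE, adjusted p = 6.55e-05) in controls and -1.06 ± 0.21 (adjusted p = 1.83e-04) in knockouts, and to -1.71 in controls without SVC replicate 3. Rpl36, a small protein at the surface of the large subunit, gave 52.7, 49.9 and 104 CPM in control SVC against 113 to 187 CPM in control adipocytes, again without overlap (-1.05 ± 0.23 and -0.90 ± 0.21 in the 2 genotypes). Rpl41 was 120, 104 and 217 CPM in control SVC and 197 to 366 CPM in adipocytes, so that replicate 3 fell within the adipocyte range (-1.03 ± 0.23, adjusted p = 6.58e-04; knockouts -0.54 ± 0.21, adjusted p = 0.0267). Rps19, whose human counterpart is mutated in Diamond-Blackfan anaemia, was lower by -0.73 ± 0.25 and -0.71 ± 0.23. The relatives Rpl7l1 (-0.68 ± 0.16 and -0.66 ± 0.15) and Rps27l (-0.69 ± 0.28 and -0.71 ± 0.26) also fell in both genotypes. The partner Rpl7 was higher in knockouts (0.58 ± 0.18), and Rps27 passed in neither (0.12 ± 0.24 and 0.22 ± 0.23). Rpl39 passed in controls only (-0.84 ± 0.31, adjusted p = 0.0194; knockouts -0.39 ± 0.28, adjusted p = 0.212).

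Rpl12, Rpl5 and Rpl4, all of the large subunit, were higher in SVC. Rpl12 was 309, 329 and 640 CPM in control SVC against 182 to 247 CPM in adipocytes, without overlap (1.01 ± 0.20, adjusted p = 1.84e-04; knockouts 0.83 ± 0.19, adjusted p = 8.59e-04). Rpl5, which carries 5S ribosomal RNA into the ribosome, was 279, 305 and 562 CPM against 164 to 257 CPM (0.98 ± 0.19; knockouts 0.66 ± 0.19). Rpl4, with a loop that lines the exit tunnel, was 650, 756 and 1012 CPM against 413 to 530 CPM (0.76 ± 0.14, adjusted p = 9.99e-05; knockouts 0.69 ± 0.13, adjusted p = 1.95e-04). For these 3 members control replicate 3 was the highest library, and the difference passed without it too (0.58, 0.58 and 0.55). Rpl3 and the X-linked Rps4x and Rpl10 were higher in both genotypes, by 0.65 ± 0.18, 0.65 ± 0.20 and 0.52 ± 0.18 in controls, and did not pass in controls without replicate 3 (adjusted p = 0.0785, 0.168 and 0.343, edgeR). Rps10, whose level is uncertain, had the largest values outside the testis paralogues (1.21 and 1.39 in the 2 genotypes). Rpl13a, also of uncertain level, was higher by 0.73 in controls and 1.25 in knockouts (adjusted p = 0.0272 and 5.93e-04, edgeR).

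**Figure D3:**
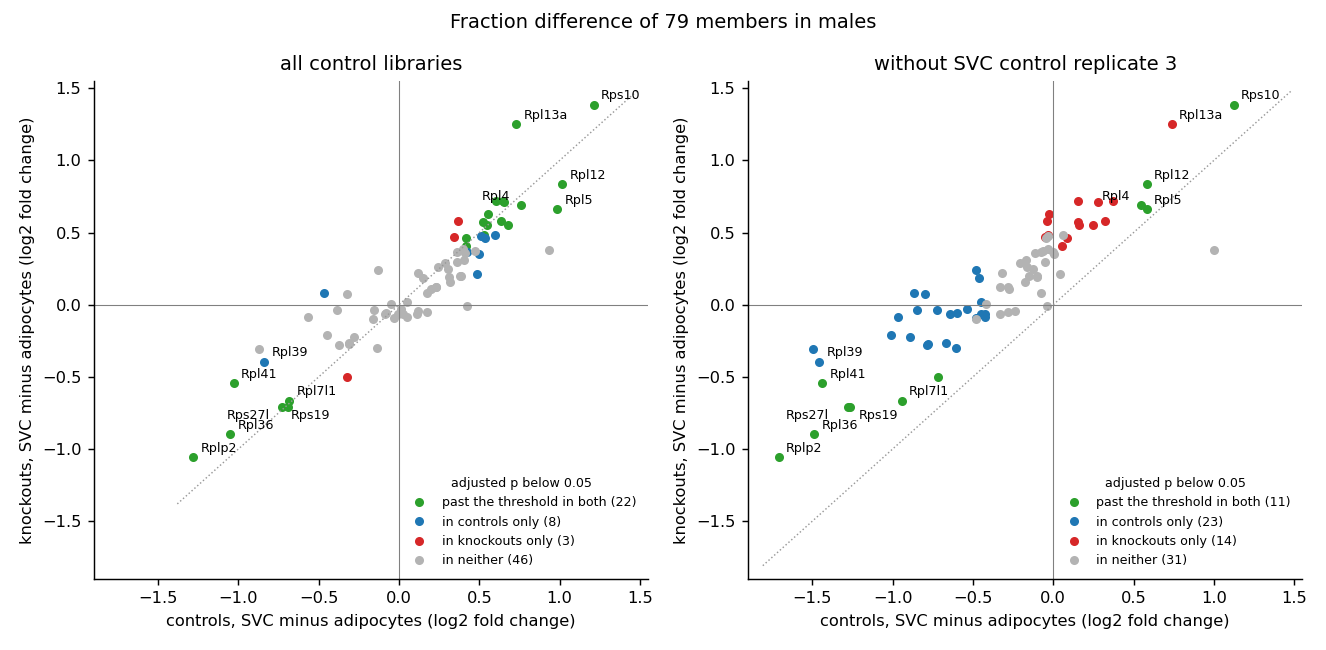
Log2 fold change of 79 members (without Rpl10l and Rpl39l), SVC minus adipocytes, in controls (horizontal) and knockouts (vertical), with every library (left) and without SVC control replicate 3 (right), coloured by which comparison passed an adjusted p of 0.05. Rplp2 lies lowest in both panels, and leaving out the library moves nearly all points to the left, from a median of 0.24 to -0.18 over 81 members.

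The order of the members between the fractions went with the length of the protein they encode. Over the 76 members with at least 100 counts on average, Spearman's rho between coding length (GENCODE M21) and the SVC minus adipocyte fold change was 0.52 in controls and 0.50 in knockouts, as a description over genes that share their libraries. Over all 14970 genes with a length it was 0.14 and 0.13. A relation to length was not confined to the fractions. For female minus male adipocytes rho over the 76 members was -0.53 in knockouts and -0.22 in controls. Over all 12717 genes with a length there it was -0.17 and -0.24. For knockout minus control the members gave 0.30 in male adipocytes, 0.12 in female adipocytes and -0.31 in SVC. The 38 members at or below the median coding length of 448.5 bases had a median of -0.07 in controls and -0.03 in knockouts, with 6 and 3 called higher and 6 and 5 lower. The 38 longer ones had 0.37 and 0.30, with 14 and 13 called higher and 2 lower in each. Without SVC control replicate 3 both medians moved down, to -0.51 and -0.09, and rho was 0.55. Rpl7l1, of 738 coding bases and lower in SVC, departed from this order. Spearman's rho with the GC content of the transcript was -0.29 and -0.21. By pyrimidine runs at the start, medians in controls were 0.23 for the 27 with a run of 8 or more and 0.18 for the 33 without, and in knockouts 0.12 and 0.19, in the opposite order.

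**Figure D4:**
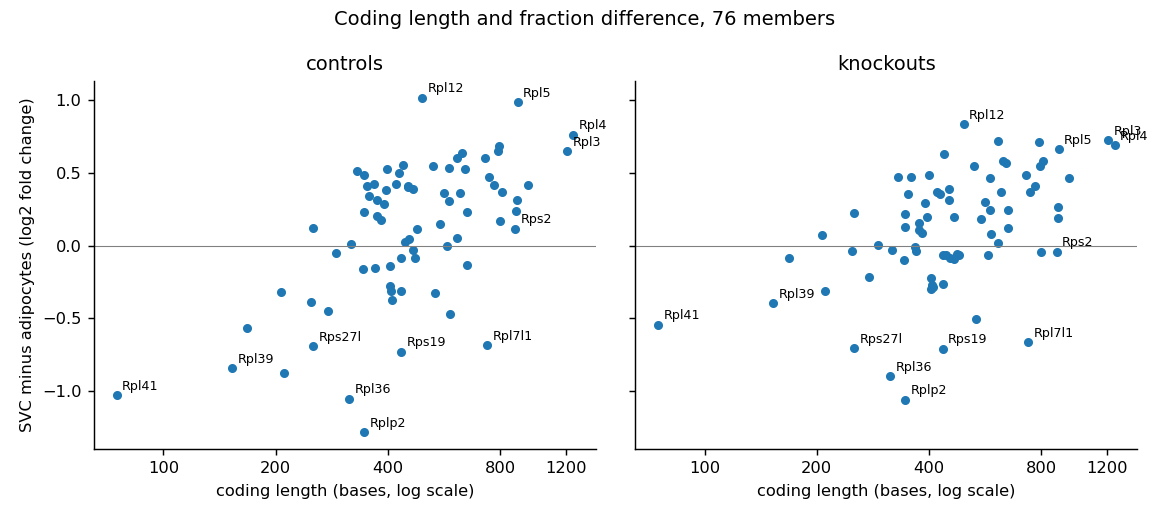
Coding length (bases, log axis) of 76 members against their log2 fold change, SVC minus adipocytes, in controls (left) and knockouts (right), 1 point per gene. Short members such as Rpl41, Rpl39 and Rpl36 lie below 0 in both panels, and Rpl3, Rpl4 and Rpl5 lie above.

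Other parts of the translation machinery also differed between the fractions, where 44.2% and 44.7% of all genes were higher and 32.8% and 31.8% lower in controls and knockouts. Of 77 mitochondrial ribosomal proteins, 76 were lower in SVC in each genotype, with a median of -2.09 in controls and -1.79 in knockouts, and none was higher. Mrps34 was lower by -3.01 ± 0.19 in controls and Mrpl49 by -2.92 ± 0.15. Of 4 other proteins of the cytosolic ribosome, the scaffold Rack1 was higher in SVC (0.99 ± 0.17 and 1.02 ± 0.17), and so was Rpl36al (1.94 ± 0.44 and 1.27 ± 0.40). Ribosome biogenesis genes split into 13 higher and 22 lower of 50 in controls and 10 and 24 in knockouts, among them the nucleolar ATPase Mdn1 (1.34 ± 0.12) and the H/ACA protein Nop10 (-1.87 ± 0.23). Among 29 genes of growth signals to translation 18 were lower in each genotype, and 7 and 6 were higher, led by Mycn (2.79 ± 0.48 and 2.68 ± 0.48). The translation repressor Eif4ebp1 fell by 4.65 ± 0.23 on the log2 scale in controls. SVC are a mixture of cells, so fewer cells with a high level and a lower level per cell cannot be told apart.

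The testis and muscle paralogues had counts in a few SVC libraries of both genotypes. Rpl10l, a retrogene copy of Rpl10 used in spermatogenesis, had 0 counts in all 23 adipocyte libraries. In SVC it had 203, 11 and 3 counts in controls and 3, 2, 1 and 1780 in knockouts. Rpl39l, the testis relative of Rpl39, had 121, 10 and 2 counts and 8, 10, 0 and 1367, and at most 4 in any adipocyte library. Both are thus high in control replicate 1 and knockout replicate 4 and near 0 elsewhere. The sperm transcript Prm2, which encodes a protamine, had 2904, 525 and 0 counts in the controls and 128, 11, 37 and 14166 in the knockouts. The 12 epididymal and sperm markers summed to 2149 CPM in control replicate 1 and 1311 CPM in knockout replicate 4, and to at most 88.0 CPM in the other SVC libraries.

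Rpl3l, the striated muscle paralogue of Rpl3, had 305, 5 and 2 counts in control SVC and 3, 3, 4 and 1 in knockouts, and at most 3 in any adipocyte library. Its high library was control replicate 1, which also held transcripts of the epididymal epithelium, with 19603 counts of Lcn8 and 19612 of Adam7 against at most 9 of either in the other SVC libraries. Knockout replicate 4, with its sperm transcripts, had 1 count of Rpl3l. The 9 skeletal muscle markers summed to at most 5.37 CPM in any SVC library, and Ckm (muscle creatine kinase) had 3, 5 and 9 counts in controls. No fold change against adipocytes is given for these 3 genes, since adipocyte libraries hold at most 4 counts of any. Rpl10l and Rpl39l nevertheless remain in the counts of members called higher in SVC. Between the SVC genotypes the log2 fold changes of Rpl10l (2.74 ± 2.85) and Rpl39l (3.07 ± 2.71) did not pass (adjusted p = 0.968 each, edgeR).

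**Figure D5:**
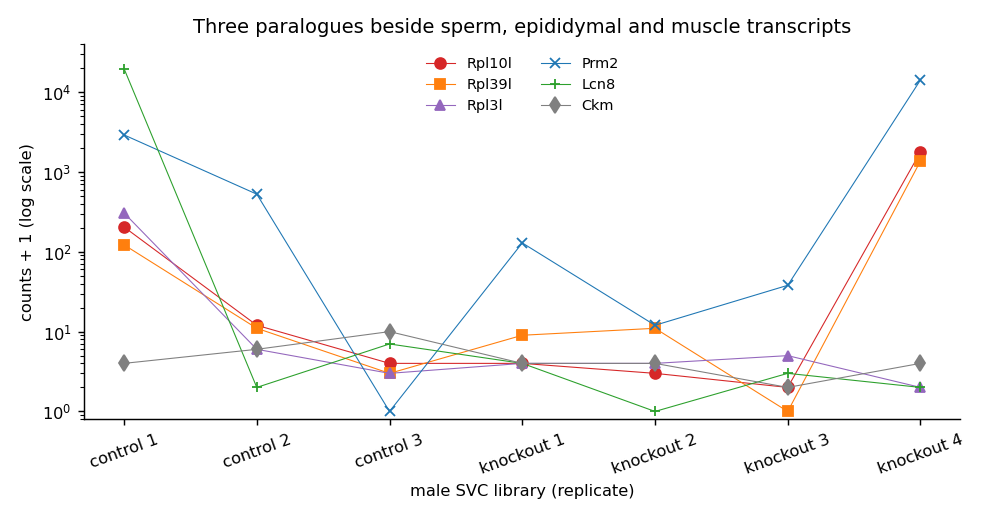
Counts plus 1 (log axis) of Rpl10l, Rpl39l and Rpl3l in the 7 male SVC libraries, beside the sperm transcript Prm2, the epididymal transcript Lcn8 and the muscle transcript Ckm. Rpl10l and Rpl39l peak with Prm2 in control replicate 1 and knockout replicate 4, and Rpl3l is high in control replicate 1, as is Lcn8.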

How the data were processed

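Strand-specific mRNA libraries of 30 mouse samples were analysed from the deposited table of raw counts per gene, which the authors made from reads checked with FastQC 0.12.1 and aligned with STAR 2.7.11a to mm39, per the submitters' processing notes. The counting tool and the gene models behind the table are not stated by any source used here, and the deposited rlog table was not used. Symbols came from a gene ID table, and biotypes and coding lengths from GENCODE M21. All groups come from the labels. The members and gene lists were chosen with earlier results of these data known.

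Tests used edgeR 4.0.16 (R 4.3.3; TMM scaling, genes kept by filterByExpr with a minimum count of 10, robust quasi-likelihood F-test), with Benjamini-Hochberg adjustment over all genes tested and calls below 0.05. There were 3 fits: 23 adipocyte libraries, 7 SVC libraries, and 18 male libraries for the fraction comparisons. Of the 82 members 78 passed the filter in adipocytes and 81 in the other fits. Code was tested on simulated data. Alternatives were RLE and upper-quartile scaling, TMM without the members, no filter, DESeq2 1.42.0, limma-voom (limma 3.58.1), only the compared groups, changed member lists, each library left out, and a replicate block. Leaving out both SVC libraries with epididymal or sperm transcripts was added after seeing the data. Column names number the libraries of both fractions alike. In knockouts same-numbered libraries deviated together in all 3 pairs (r from 0.200 to 0.277), and in controls r ran from -0.00423 to 0.198. The blocked fit is given beside both comparisons.

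Named with values were, per comparison, the 4 called members of largest change each way (or the 2 of smallest p where none was called), the paralogues with their parents, the 3 highest and 3 lowest members, those that followed the others least, and up to 2 called genes each way of each list. Rpl4 was given values between the fractions outside this rule. Rps4l is annotated as a pseudogene and has no value here. Total counts of 20484836 to 22209603 per library limit precision mainly for members with few counts, and no libraries of a group agreed within sampling noise (lowest chi-square per degree of freedom 12.9).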

Additional observations from a re-analysis of the deposited data

Results flagged for a closer look

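Among 161 groups of 4 to 6 libraries examined for a single library far from the others, 9 had one, and chance alone flags about 1 in 20 such groups. SVC knockout replicate 4 gave 3 of them. Its Rpl10l level was 59.0 CPM, beside 0.0387 to 0.111 CPM in the other 3 libraries, and its Rpl39l level was 45.3 CPM, beside 0 to 0.393 CPM. Its Rpl14 level was low, at 204.3 CPM beside 259 to 267 CPM.

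Male knockout adipocyte replicate 5 was high for Rps19, at 439 CPM beside 241 to 279 CPM, and for Rpl7l1, at 95.0 CPM beside 58.9 to 67.0 CPM. Male control adipocyte replicate 5 was low for Rpl3, at 388 CPM beside 479 to 533 CPM, and for Rpl7, at 319 CPM beside 370.3 to 398 CPM. Female knockout adipocyte replicate 4 was high for Rpl22l1, at 87.3 CPM beside 35.8 to 47.8 CPM. Male control adipocyte replicate 1 had 0.196 CPM of Rpl39l, beside 0 to 0.0496 CPM, a difference of a few counts.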

How the results depend on the processing

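Counts of called members depended on single libraries most in the knockout sex comparison and the control fraction comparison. The cause was not tested. The share of all genes called under each setting is not given beside these counts. Leaving out single libraries gave 0 to 2 members lower in male knockout adipocytes, 32 to 52 higher and 0 to 1 lower in female controls, 1 to 24 higher and 0 to 1 lower in female knockouts, 5 to 32 higher and 4 to 30 lower in control SVC, and 17 to 25 higher and 5 to 7 lower in knockout SVC. In the knockout sex comparison the count was 3 without male knockout replicate 1 or 2 or female knockout replicate 2, 4 without female knockout replicate 3, and 24 without male knockout replicate 5. In the control fraction comparison 15, 13, 14 and 14 were higher without male control adipocyte replicates 3, 4, 5 and 6, and 4 were lower without SVC control replicate 1 or 2. DESeq2 called 1 member lower in male knockout adipocytes. In female controls 1 was lower with RLE scaling, TMM without the members, DESeq2, limma-voom or the compared groups alone. The knockout sex count was 7 with TMM without the members, 4 with no filter and 8 with the groups alone. The control fraction count was 13 with no filter, 15 with limma-voom, 13 with the groups alone, and 36 higher and 4 lower without both SVC libraries with epididymal or sperm transcripts. Without the 5 members of most counts the share was 1.42% and 1.40% in male control and knockout adipocytes, 1.54% in female knockouts and 2.16% in knockout SVC.

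The ranges here are over all alternative settings, not only those with a single library left out. The members' median ran from -0.24 to 0.35 (SVC genotype), from -0.18 to 0.45 (control fraction) and from -0.19 to 0.42 (fraction by genotype). Its sign turned without SVC control replicate 3. That library also turned Rpl22 (-0.31 to 0.025) and Rpl14 (-0.42 to 0.26) in SVC, and Rpl22l1 (-0.62 to 0.021) and Rpl5 (-0.50 to 0.074) in fraction by genotype. Rpl22l1 in female knockouts ran from -0.19 to 0.15 (-0.06, -0.05 and -0.19 without female control replicate 5, 6 or knockout replicate 4), and Rps4x between the sexes in knockouts from -0.17 to 0.019, the latter without male knockout replicate 5. Rpl10l between the SVC genotypes turned from 2.74 to -0.75 with limma-voom. None of these named values passed the test in the main analysis.

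With a replicate block, 6 members were higher and 7 lower in control SVC, and 4 higher and 6 lower in knockout SVC. Rpl39l and Rpl10l were among the higher ones in each. Between the SVC genotypes these 2 genes turned from 3.07 and 2.74 to -2.14 and -4.32, and the genotype comparisons still called 0 members. Outside the knockout fractions same-numbered libraries did not deviate together in every pair. Control and knockout libraries, which differ in genotype label and so are not of a shared animal, were paired by the number in their titles. Their correlations ran from -0.139 to 0.0735 in male adipocytes, -0.0539 to 0.375 in female adipocytes and -0.255 to 0.339 in SVC. Across control fractions they ran from -0.00423 to 0.198, with a mean of 0.119, beside -0.0229 for libraries of other numbers. Pairs across fractions used the number in the column names. The labels do not say whether that shared number means a shared animal. The fits of compared groups alone could not be made for differences of effects, which already use every group.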
